A study of Macaca mulatta with 29 samples.

Results

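The histone genes were read across all libraries of a study of rhesus macaque embryonic stem cells. Members were the rows of the expression table whose gene symbol starts with HIST and a cluster number followed by H, or with H1F, H2AF or H3F, and 77 of 16048 genes matched. By symbol, 61 of them were replication-dependent core or linker histone genes and 16 were variant or testis genes. Cells of the ORMES-6 line were grown on mouse embryonic fibroblasts that can no longer divide, in 5% oxygen, and were exposed for 4 weeks in 1 plate per treatment. The groups were methanol vehicle (5 libraries), 30 uM atrazine, a herbicide (5), 10 nM bisphenol A, a plastics monomer (5), 5 uM di(2-ethylhexyl) phthalate or DEHP, a plasticizer (4), 100 nM perfluorooctanoic acid or PFOA, a surfactant (5), and 25 nM tributyltin chloride, a biocide (5). The labels give 3 passages for all 29 libraries, and compound and plate cannot be told apart. Libraries of a group came from wells of that plate, so p-values measure the spread between wells, which may be technical.

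Histones package DNA into nucleosomes, each built from the core histones H2A, H2B, H3 and H4, while the linker histone H1 binds where DNA enters and leaves. Most core and linker histone is made during S phase from clustered genes without introns, whose transcripts end in a conserved stem-loop and not in a poly(A) tail. Variant genes such as H2AFZ and H3F3B lie outside these clusters, have introns and are expressed through the cell cycle with polyadenylated transcripts. Embryonic stem cells divide fast and spend much of their cycle in S phase.

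The way a library is made decides whether transcripts without a poly(A) tail are seen. Here each sample gave 100 ng of RNA, which was copied with the Ribo-SPIA chemistry of the Ovation kit, which primes both on the poly(A) tail and along the transcript, and read as 50 nt single-end reads. Values were FPKM, fragments scaled to transcript length and library size, so levels can be compared between genes per length. The number of reads was not given, but the spacing of low FPKM values gave relative depth: set against the deepest library, those of bisphenol A reached 14.2 to 27.2% and those of the other groups 41.2 to 100%. The pluripotency genes LIN28A and POU5F1 were high, with 464 to 722 and 371 to 672 FPKM over the libraries. Of 14 fibroblast markers 12 were in the table and 6 passed the filter on level; COL1A1 and COL1A2 led them, with 32.8 to 71.7 and 22.8 to 46.7 FPKM. The lowest of the 12 were DCN, at 0 in all libraries, and LUM, at no more than 0.0831 FPKM.

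Replication-dependent histone genes were abundant in every library. All 61 had a mean of at least 1 FPKM, the level required for testing, and none was listed at 0 in any library. Of these genes 49 carried the symbols of histone cluster 1, 9 of cluster 2, 2 of cluster 3 and 1 of cluster 4. Mean levels ran from 2.75 FPKM for HIST1H3A to 788 FPKM for HIST1H3B. Together the 61 genes summed to between 5714 FPKM (tributyltin replicate 3) and 12444 FPKM (vehicle replicate 5), which was 1.22 to 2.25% of all FPKM in a library. Many of these genes code for the same or nearly the same protein from very similar sequences, so how reads were shared out among the copies of a class is uncertain, and the sum over a class depends less on it. The RefSeq annotation T2T-MMU8v2.0, for example, lists the symbols HIST1H3A, HIST1H3D and HIST1H3J under 1 macaque gene.

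**Figure D1:**
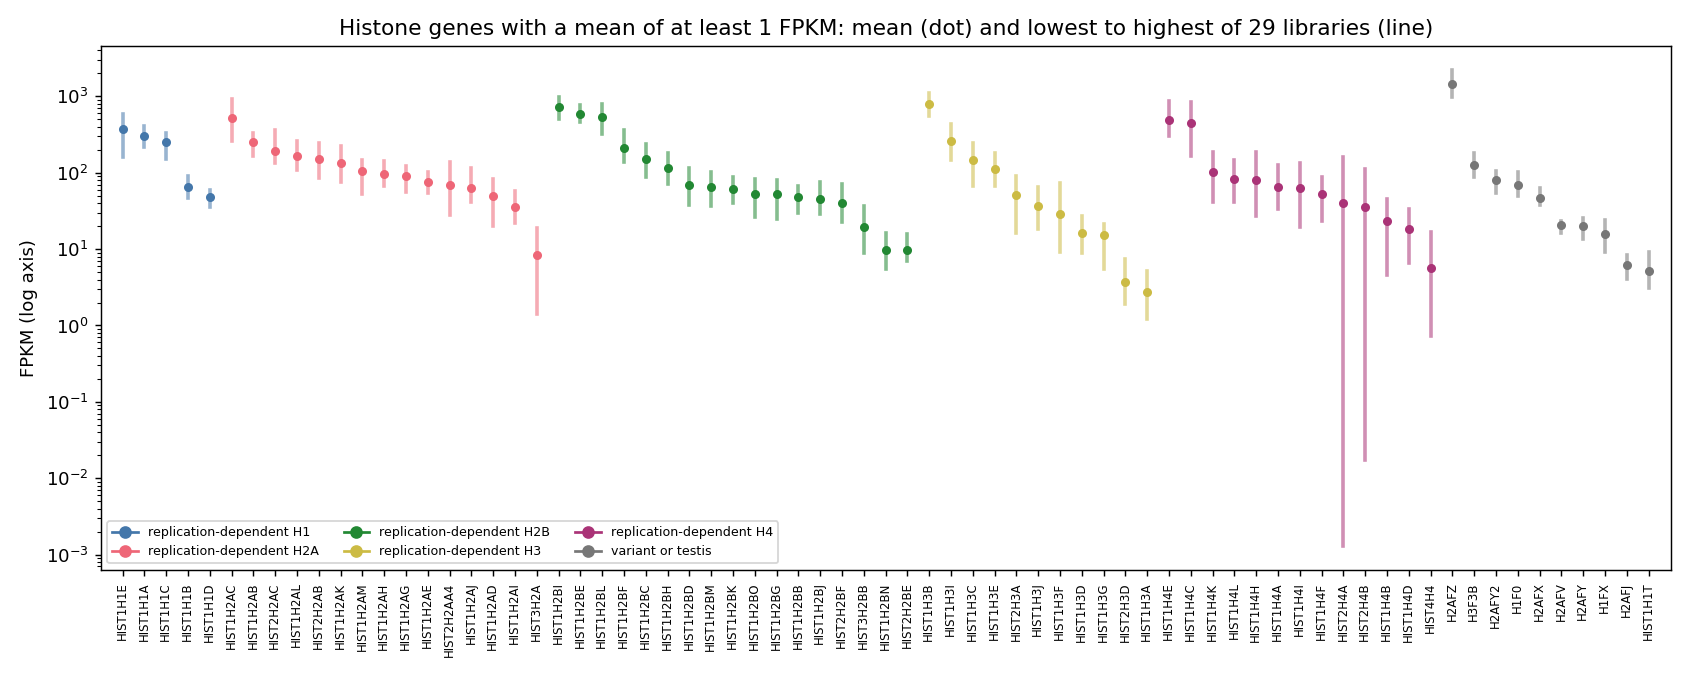
Mean FPKM (dot) and the lowest to highest of 29 libraries (line) for the 71 histone genes that averaged 1 FPKM or more, on a log axis and ordered by class and level. Each class spans a wide range of levels, H2AFZ is the highest gene, and HIST2H4A and HIST2H4B have the longest lines, down to 0.0013 and 0.0173 FPKM.

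Each class of replication-dependent genes was led by 1 or a few copies. Among 5 linker genes HIST1H1E was highest, at 379 FPKM (mean over 29 libraries), and HIST1H1D lowest, at 47.4 FPKM. HIST1H2AC led 15 H2A genes with 522 FPKM, and the class median was 97.1 FPKM. HIST1H2BI led 17 H2B genes with 722 FPKM, followed by HIST1H2BE with 592 and HIST1H2BL with 536 FPKM, against a class median of 62 FPKM. HIST1H3B, one of 11 H3 genes, had 788 FPKM, 3 times the next H3 gene, HIST1H3I, which had 262 FPKM. HIST1H4E and HIST1H4C led 13 H4 genes with 494 and 445 FPKM, and HIST1H4K came next with 102 FPKM.

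In the vehicle wells HIST1H1E had 508, 496, 231, 263 and 586 FPKM in replicates 1 to 5, and its group mean was 417 ± 159 FPKM (SD, n = 5). HIST1H2AC had 654, 788, 372, 469 and 924 FPKM in the same wells. HIST1H4E had 782, 458, 300.2, 449 and 638 FPKM. In each of these 3 genes well 3 was the lowest, and a single vehicle group spanned more than a doubling. HIST1H2BI had 866, 817, 537, 746 and 964 FPKM, and HIST1H3B 953, 749, 562, 766 and 1039 FPKM. For both of them too, well 3 was lowest and well 5 highest.

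Among variant genes H2AFZ, which codes for the variant H2A.Z found at promoters and enhancers, was the highest histone gene of the table, with 1455 FPKM. In the vehicle wells it had 1491, 1560, 1289, 1389 and 1903 FPKM, and group means ran from 1261 ± 158 FPKM (SD, n = 5) with bisphenol A to 1709 ± 381 FPKM (n = 5) with PFOA. The H3.3 gene H3F3B, whose product is put into chromatin outside replication, followed with 126 FPKM. The macroH2A gene H2AFY2 had 81.5 FPKM, the linker variant H1F0 68.3 FPKM and H2AFX 46.9 FPKM. H2AFX codes for the H2A form that is phosphorylated at DNA breaks, and its gene makes both stem-loop and polyadenylated transcripts. H2AFV, a second H2A.Z gene, had 20.6 FPKM and varied least, from 16.1 to 23.3 FPKM over all libraries.

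The variants H2AFY, H1FX and H2AFJ and the testis linker gene HIST1H1T completed the 10 variant or testis genes that were tested, with 20.2, 15.9, 6.13 and 5.16 FPKM. The other 6 members stayed under a mean of 1 FPKM and entered no test. HIST1H2BA, a testis H2B gene, averaged 0.54 FPKM and was listed at 0 in 9 of 29 libraries. H3F3C averaged 0.313, HIST3H3 0.231, HIST1H2AA 0.0757 and H1FNT 0.035 FPKM, with 15 to 26 libraries listed at 0. H2AFB3 was listed at 0 in all 29 libraries.

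The question the study put is whether low doses of these compounds over a long time act on the stem cells. Each compound was compared with vehicle on log2(FPKM + 1), a scale that understates changes of low genes, with limma's moderated test and Benjamini-Hochberg adjustment over the 11080 genes that averaged 1 FPKM or more. All 5 comparisons share the vehicle wells. In bulk RNA, fewer cells in S phase and less histone RNA per cell cannot be told apart.

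No histone gene passed an adjusted p of 0.05 with any compound: 0 of 71 were called by limma with atrazine, bisphenol A, DEHP, PFOA and tributyltin alike. Of all genes tested 0.19% were called with atrazine, 0% with bisphenol A, 0.00903% with DEHP, 0.162% with PFOA and 1.25% with tributyltin. At an unadjusted p under 0.05, 10 histone genes were lower with atrazine, 12 with bisphenol A, 2 with DEHP and 1 each with PFOA and tributyltin, and 0 were higher. As shares of all genes, 4.02, 3.31, 5.65, 4.11 and 6.95% were lower in this way, in the same order. The 10 of 71 with atrazine and 12 of 71 with bisphenol A lie above those shares and the other counts do not. Of the 12 with bisphenol A, 7 were H2A genes. Other settings of the fit called at most 1 histone gene in a comparison with vehicle.

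Histone levels nevertheless leaned to one side of vehicle. With atrazine 67 of 71 histone genes had a log2 fold change below 0, with bisphenol A 66, with DEHP 58, with PFOA 46 and with tributyltin 58. Over all genes the shares below 0 were 51.4, 56.2, 52.5, 52 and 54.8%. The median log2 fold change of the 71 genes was -0.28 with atrazine, -0.24 with bisphenol A, -0.14 with DEHP, -0.08 with PFOA and -0.11 with tributyltin, and that of all genes lay between -0.017 and -0.0046. Vehicle had the highest group mean for 42 of the 71 genes, and atrazine the lowest for 33 and bisphenol A for 27. This order was not counted over all genes. The histone genes vary together from library to library, so the counts are not independent observations.

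The medians changed with the wells used, vehicle and treated alike. Without vehicle replicate 1 the medians were -0.22, -0.18, -0.05, 0.01 and -0.02 for atrazine, bisphenol A, DEHP, PFOA and tributyltin, and without vehicle replicate 5 they were -0.20, -0.16, -0.05, 0.01 and -0.05. Without vehicle replicate 3, the well with the least histone RNA, they were -0.39, -0.38, -0.26, -0.20 and -0.24. The PFOA median turned without vehicle replicate 1 or 5, and was -0.04 without vehicle replicate 2. Without vehicle replicate 4 the PFOA and tributyltin medians were -0.14 and -0.19. Among treated wells, the tributyltin median was 0.004, with 34 of 71 genes below 0, without tributyltin replicate 3, -0.07 without replicate 4, -0.22 without replicate 1 and -0.24 without replicate 5. The PFOA median was -0.02 without PFOA replicate 2 or 3. The DEHP median was -0.22 without DEHP replicate 1 and -0.07 without replicate 3, the atrazine median -0.19 without atrazine replicate 4, and the bisphenol A median -0.37 without bisphenol A replicate 1. With all libraries numbered 1 and 5 left out, an alternative added after seeing the data, the medians were -0.32, -0.21, 0.00055, 0.04 and -0.24. With relative depth as a covariate the medians were -1.04 for bisphenol A, -0.15 for PFOA and -0.19 for tributyltin. Depths of bisphenol A (14.2 to 27.2%) and of the other groups (41.2 to 100%) do not overlap. That fit therefore cannot separate depth from bisphenol A, and its -1.04 is not a corrected effect. Blocking on the replicate number gave a DEHP median of -0.07. A single histone gene had a 95% interval with a median half-width of 0.43 on the log2 scale (0.46 with DEHP), against 0.23 (0.24 with DEHP) over all genes.

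**Figure D2:**
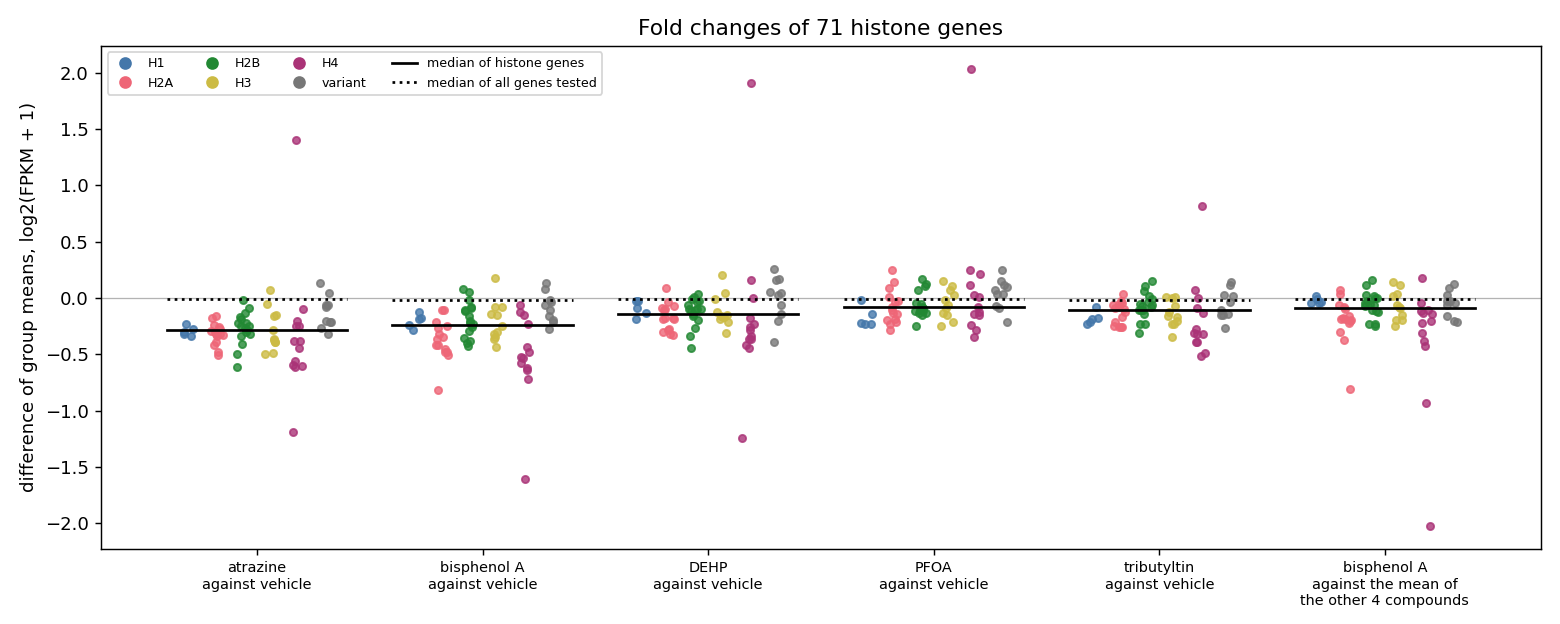
Difference of group means on the log2(FPKM + 1) scale (vertical axis) for each of the 71 histone genes (points, coloured by class) in 6 comparisons, with the median of the histone genes (solid line) and of all genes tested (dotted line). Medians lie at -0.28 with atrazine, -0.24 with bisphenol A, -0.14 with DEHP, -0.08 with PFOA and -0.11 with tributyltin; the points farthest from 0 are the H4 copies HIST2H4A and HIST2H4B.

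By class, the H4 genes had the lowest median with atrazine (-0.38), bisphenol A (-0.52), DEHP (-0.28) and tributyltin (-0.31), and the H1 genes with PFOA (-0.22). All 5 linker genes were below 0 with every compound. All 15 H2A genes were below 0 with atrazine and bisphenol A, 14 with DEHP and tributyltin and 11 with PFOA. The 10 variant genes had medians of -0.14 with atrazine, -0.09 with bisphenol A, -0.07 with tributyltin, 0.04 with DEHP and 0.06 with PFOA. Of these 10 genes 8, 8, 6, 4 and 3 were below 0, in the same order. Differences between classes were not tested.

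The summed FPKM of the 61 replication-dependent genes shows the same order of groups. Vehicle had 11677, 10357, 6644, 8297 and 12444 FPKM in replicates 1 to 5, a mean of 9884 ± 2398 FPKM (SD, n = 5). Atrazine had 9801, 6670, 7054, 6216 and 10000 FPKM, a mean of 7948 ± 1808 FPKM (n = 5). Bisphenol A had 10829, 6223, 8130, 6958 and 7878 FPKM, a mean of 8004 ± 1752 FPKM (n = 5). Both groups lie within the range of the vehicle wells except for a single library each, which is below the lowest vehicle well. DEHP averaged 8805 ± 1283 FPKM (n = 4), PFOA 9275 ± 1464 FPKM (n = 5) and tributyltin 9078 ± 2715 FPKM (n = 5). Differences between group means were smaller than the SD of the vehicle wells, and no p is given for a sum over chosen genes.

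HIST1H2AH, a cluster 1 H2A gene, had the smallest p among histone genes with atrazine. It had 124, 113, 91.8, 116 and 139 FPKM in the vehicle wells and 88.4, 74.9, 85, 67.1 and 93.5 FPKM with atrazine. Only atrazine replicate 5 reached above the lowest vehicle well. The log2 fold change was -0.51 (SE 0.13), with a limma adjusted p of 0.168. It was called with the replicate number as a block (-0.51, adjusted p = 0.0303), although the pairing check was not met for atrazine, and with library weights (-0.51, adjusted p = 0.0412). Over all its alternatives the limma adjusted p ran from 0.0303 to 0.47. HIST1H2AH also had the smallest p with PFOA, where its wells had 91.2, 98.3, 99.4, 82.9 and 105 FPKM, a log2 fold change of -0.28 (SE 0.13) and a limma adjusted p of 0.845. There the groups overlapped more widely.

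HIST1H2AE, another H2A gene, had the smallest p with tributyltin. Vehicle had 84, 92.7, 71.1, 86.3 and 103 FPKM and tributyltin 70.4, 63.4, 63.6, 73.9 and 96.1 FPKM, so the groups overlapped. The log2 fold change was -0.25 (SE 0.12), with a limma adjusted p of 0.451. The H3.3 gene H3F3B had the smallest p with DEHP, with 90.1, 111, 140 and 105 FPKM against 90.5, 156, 183, 145 and 168 FPKM in vehicle. It overlapped with vehicle and had a log2 fold change of -0.39 (SE 0.18) and a limma adjusted p of 0.589.

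For tributyltin and vehicle, deviations of libraries with the same replicate number correlated at over 0.1 in every pair, so the fit with the number as a block stands beside the other. Not every tributyltin library correlated best with the vehicle library of its own number. The block was also fitted to all 29 libraries, including those of compounds that did not meet the pairing check. With the block 1 of 71 histone genes was called in that comparison, H3F3B, at -0.27 on the log2 scale with a limma adjusted p of 0.0473, against 0.625 without it. Over all alternatives of the fit 44 to 420 of all genes were called there, against 138 in the main fit. The share with the block alone is not given here, so the call of H3F3B has no background beside it. H3F3B had 87.9, 139, 138, 118 and 124 FPKM with tributyltin. It was lower than vehicle in the same-numbered well in 5 of 5 pairs, by little in number 1 and by most in numbers 3 and 5.

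Between bisphenol A and the other compounds 1 histone gene was called, HIST1H2AD, a cluster 1 H2A gene. It had 38.4, 19.9, 30.2, 24.5 and 40.4 FPKM in the bisphenol A wells, a mean of 30.7 ± 8.80 FPKM (SD, n = 5). The vehicle wells had 69.7, 58.5, 40.7, 41.6 and 60.8 FPKM, a mean of 54.3 ± 12.7 FPKM (n = 5). Every bisphenol A library was below every vehicle library, though the highest of the former and the lowest of the latter nearly met. The log2 fold change against vehicle was -0.82 (SE 0.20), and the limma adjusted p was 0.343 while 0% of all genes were called.

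The other compounds were on the vehicle side for HIST1H2AD. Atrazine had 51.2, 37.6, 47, 37.5 and 70.2 FPKM, and DEHP 61.4, 57.9, 39.2 and 34.4 FPKM. PFOA had 82.8, 61.5, 54.4, 61 and 60.1 FPKM, and tributyltin 77.2, 52.6, 41.2, 48.1 and 59.6 FPKM. The bisphenol A range overlapped with those of atrazine and DEHP and lay below those of PFOA and tributyltin. Against the mean of the other 4 compounds, HIST1H2AD was lower with bisphenol A by a log2 fold change of -0.80 (SE 0.16), with a limma adjusted p of 0.0106. It was the only one of 71 histone genes called there, while 1.14% of all genes were, so the share of histone genes called is close to the background. At an unadjusted p under 0.05, 5 of 71 were lower, against 6.63% of all genes.

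**Figure D3:**
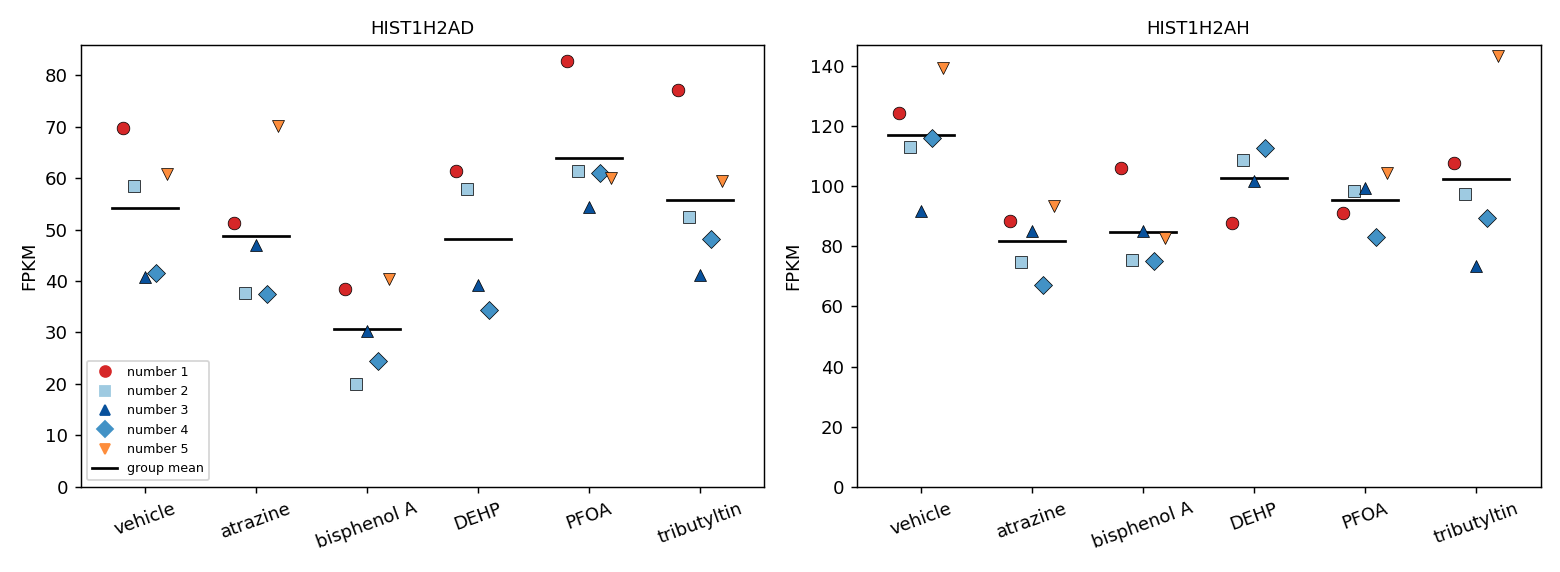
FPKM of HIST1H2AD (left) and HIST1H2AH (right) in each library, by group, with the group mean as a bar and marks by the replicate number of the library. HIST1H2AD sits between 19.9 and 40.4 FPKM with bisphenol A and between 40.7 and 69.7 FPKM in vehicle, and HIST1H2AH between 67.1 and 93.5 FPKM with atrazine and between 91.8 and 139 FPKM in vehicle.

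HIST1H2AD was also the only histone gene called when any difference among the 6 groups was tested (limma F test, adjusted p = 0.0393), where 1.25% of all genes were called. That call was lost without a filter on level, with quantile normalization and in 13 of 29 fits that left out 1 library: vehicle 2, atrazine 3, DEHP 3, PFOA 1, 2, 4 or 5, tributyltin 2, 4 or 5, or bisphenol A 2, 3 or 4. With a depth covariate the only histone gene called there was HIST1H4L (adjusted p = 0.0383). The call against the other compounds was lost without bisphenol A replicate 2, the lowest library, at -0.67 and an adjusted p of 0.0673. Over its 35 alternatives the adjusted p ran from 6.08e-05 to 0.0673. The bisphenol A libraries were the shallowest of the study, and compound and depth cannot be told apart for this gene. The sum over 15 H2A genes averaged 1727 ± 337 FPKM (SD, n = 5) with bisphenol A, 2312 ± 555 FPKM (n = 5) in vehicle and 1810 ± 363 FPKM (n = 5) with atrazine.

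In 58 of 71 histone genes more of the variation went with the replicate number of a library than with its compound. The same held for 7239 of all 11080 genes tested and for 70 of 79 ribosomal protein genes. The libraries carry replicate numbers 1 to 5 within each group, and the labels do not say what a shared number stands for. Numbers 1 and 5 had the highest summed replication-dependent FPKM of their group in 5 of 6 groups (number 1 alone in DEHP, which has no number 5). In bisphenol A number 1 was highest, but number 5 was below number 3. Means over groups were 10797 ± 753 FPKM (SD, n = 6) for number 1, 7948 ± 1489 FPKM (n = 6) for number 2, 7109 ± 861 FPKM (n = 6) for number 3, 8051 ± 1449 FPKM (n = 6) for number 4 and 10549 ± 1825 FPKM (n = 5) for number 5. The lowest library of number 1 was above the highest of number 3. This pattern was examined after it had been seen in the data.

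**Figure D4:**
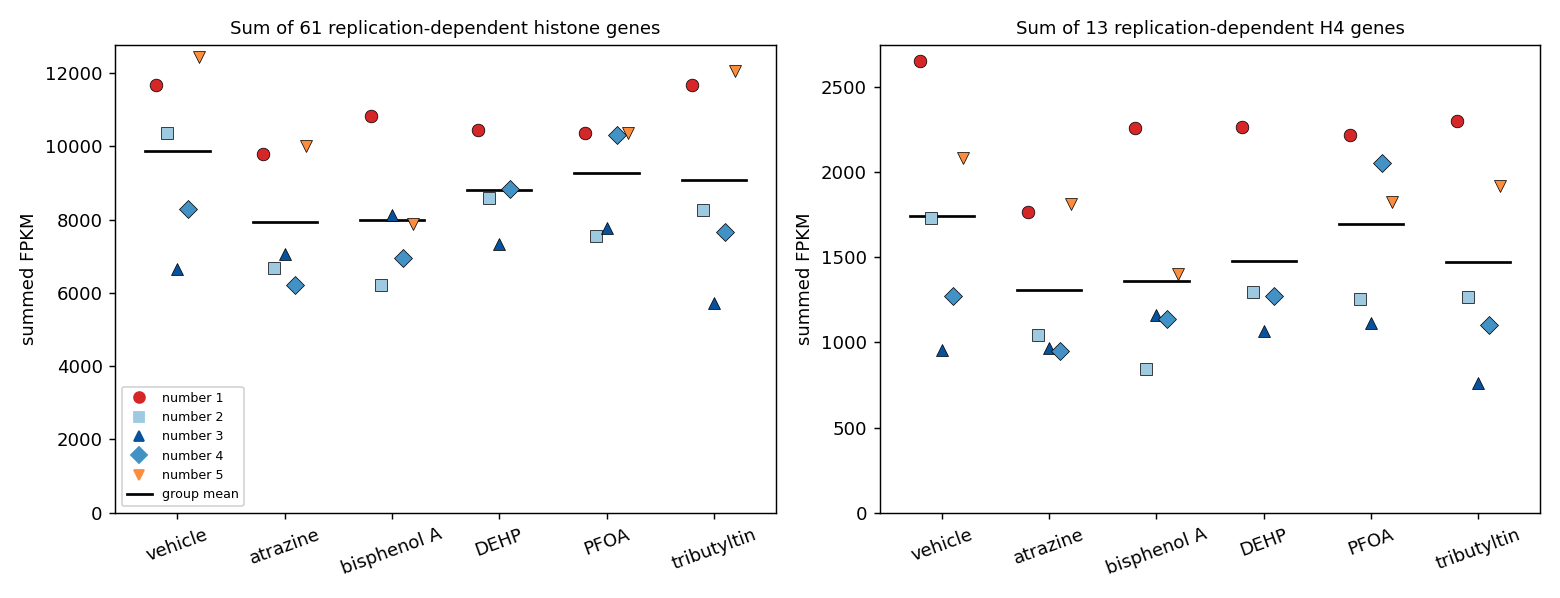
Summed FPKM of the 61 replication-dependent histone genes (left) and of the 13 H4 genes among them (right) in each library, by group, with marks by replicate number and a bar at the group mean. On the left, red and orange marks, numbers 1 and 5, sit at the top of each group except bisphenol A, where number 5 lies among the others. On the right they sit at the top of each group except PFOA, where number 4 (2054 FPKM) lies above number 5 (1827 FPKM).

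When the replicate number was added to the fit beside the group, 53 of 71 histone genes differed among numbers (limma F test, adjusted p under 0.05), against 45.3% of all genes. They were 46 of 61 replication-dependent genes and 7 of 10 variant genes. In the median replication-dependent gene 53.7% of the variation of log2 values went with the number and 13.5% with the group, and over all genes these shares were 30.4% and 18%. Within groups the median SD of a replication-dependent gene was 0.39 on the log2 scale, of a variant gene 0.23 and of any gene 0.18. A typical histone gene thus varied more between wells than a typical gene of the table.

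Of the classes, H4 genes had the highest median share of variation with the number, 59.6%. HIST1H4E had 782, 698, 869, 848, 745 and 875 FPKM in the libraries numbered 1 of vehicle, atrazine, bisphenol A, DEHP, PFOA and tributyltin. In numbers 2 to 4 of all groups it stayed between 299.5 and 500.2 FPKM, and in number 5 it had 407 to 638 FPKM. No number 1 library overlapped with any other library for HIST1H4E. Of its variation 86.3% went with the number and 3.11% with the group, and its adjusted p for the number was 6.65e-08 (limma F test). The sum of 13 H4 genes averaged 2245 ± 283 FPKM (SD, n = 6) in number 1 and 1005 ± 144 FPKM (n = 6) in number 3, and spanned 762 to 2654 FPKM over the libraries.

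The H2A copy HIST2H2AA4 and the H4 gene HIST1H4I came next to HIST1H4E, with 83.4% and 83.3% of their variation with the number; these were picked out after their values were seen. H3F3B went the other way. It was lowest in number 1 in every group, at 87.9 to 104 FPKM, and number 3 had 138 to 183 FPKM, so the ranges of the 2 numbers did not meet. Of its variation 69.5% went with the number and 17.7% with the group.

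Replication-dependent genes went up and down together over the 29 libraries. After group means were removed, 55 of 61 of them correlated at over 0.5 with the mean of the other replication-dependent genes, and the median correlation was 0.865 (29 libraries, which share the wells and the scaling of each library). The share of all genes that passed 0.5 is not given here. Variant genes followed in part: the correlation was 0.82 for H1FX, 0.775 for H2AFX, 0.684 for H2AFZ, 0.653 for H1F0, 0.454 for H2AFV and 0.435 for H2AFY2. The 2 genes below 0 were H3F3B at -0.58 and HIST1H2AJ, a cluster 1 H2A gene, at -0.03. HIST1H2AJ, looked at further because of this value, had 48.8, 64.2, 72.2 and 116 FPKM in the DEHP wells; the last of these was its highest value in the table. In the same RefSeq annotation, which names 29 of the 77 members, HIST1H2AJ lies between HIST1H2BM and HIST1H2AK, and these neighbours had correlations of 0.828 and 0.92.

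Other measures moved with the histone genes over the libraries, and their part in the pattern was not tested. The median of 79 ribosomal protein genes correlated at 0.902 with the replication-dependent genes within groups. The 6 fibroblast markers tested correlated at 0.765 by their median. Their leading genes COL1A1 and COL1A2 correlated at 0.197 and -0.368. Of the 6 markers 5 correlated above 0 and 1 below, from -0.368 to 0.733. They summed to 98.1 to 135 FPKM in the vehicle wells, 108 to 144 with atrazine, 108 to 153 with bisphenol A, 97.2 to 118 with DEHP, 100.4 to 114 with PFOA and 108 to 142 with tributyltin. Relative depth on a log2 scale correlated at -0.502, and the libraries numbered 5 had a mean depth of 41.1%, against 61.8% for those numbered 1. Pluripotency genes correlated at -0.277 and genes of S phase and DNA replication at -0.03 by their medians. Both lists were mixed. Of 22 S phase genes 12 correlated above 0 and 10 below, from -0.755 to 0.845. Of 10 pluripotency genes 4 correlated above 0 and 6 below, from -0.614 to 0.564.

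No tested factor that makes or processes histone transcripts was called with any compound. Of 19 symbols listed for histone transcription and stem-loop processing 17 were tested, and SLBP was not among them. By limma 0 of the 17 were called higher or lower in any of 5 comparisons, with 0 to 2 at an unadjusted p under 0.05. Of all genes 6.88% were at that level in either direction with atrazine, 5.17% with bisphenol A, 7.93% with DEHP, 5.79% with PFOA and 10.5% with tributyltin. NPAT, the coactivator that switches on clustered histone genes in S phase, had group means of 15 to 16.9 FPKM and lay between 13.7 and 21.5 FPKM in all libraries. CPSF3, the nuclease that cuts histone transcripts, and its partner CPSF2 were the highest, at 73.9 and 55.2 FPKM. Within groups, over 29 libraries, CPSF3 and CPSF2 correlated at -0.705 and -0.707 with the replication-dependent histone genes. The list was mixed: 11 of its 17 members had a correlation below 0 and 6 above, from -0.749 to 0.95, and its median correlated at -0.05.

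Histone chaperones, which carry new histones to DNA, were not called either, with 0 of 23 tested in any of the 5 comparisons by limma and 1 to 3 at an unadjusted p under 0.05, against the 5.17 to 10.5% of all genes given above for that level. NASP, a carrier of H3 and H4 and of linker histones, had 758 FPKM and NAP1L1, a carrier of H2A and H2B, 599 FPKM. Within groups, over 29 libraries, the median of the list correlated at -0.623 with the replication-dependent genes. Of its 23 members 16 had a correlation below 0 and 7 above, from -0.912 to 0.731. By the limma F test 16 of 23 members differed among replicate numbers, against 45.3% of all genes.

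Of 22 genes of S phase and DNA replication tested 1 was called, E2F1, a transcription factor of the G1/S step. It was higher with tributyltin by 0.44 on the log2 scale (SE 0.11, limma adjusted p = 0.041), with 4.59, 4.25, 3.41, 4.44 and 4.92 FPKM against 3.51, 2.41, 2.35, 2.99 and 3.36 FPKM in vehicle. The call was lost in 10 of 21 alternatives, among them leaving out vehicle replicate 2, 3 or 4 or tributyltin replicate 1, 2, 4 or 5, with adjusted p-values from 0.00256 to 0.178. With tributyltin limma called 1.25% of all genes. There 4 of the 22 had an unadjusted p under 0.05, against 10.5% of all genes, and 0 to 2 had with the other compounds against vehicle. RRM2 and PCNA led the list with 105 and 103 FPKM. Among 10 pluripotency genes and the 6 fibroblast markers tested, limma called 0 with any compound, and no more than 1 of either list had an unadjusted p under 0.05.

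A pair of H4 copies differed from library to library in how they split their sum. HIST2H4A and HIST2H4B are near-identical copies, and they were picked out here after their values had been seen. HIST2H4A ranged from 0.0013 to 160 FPKM and HIST2H4B from 0.0173 to 112 FPKM. In 3 of 29 libraries HIST2H4A made up over 99% of their sum and in 3 others under 1%. In bisphenol A, for instance, HIST2H4A had 160, 0.0052, 39.7, 0.0042 and 76.4 FPKM in replicates 1 to 5 while HIST2H4B had 14.8, 45.4, 0.0173, 46.8 and 0.0229 FPKM. The 6 libraries past these marks were 1 of vehicle, 1 of atrazine and 4 of bisphenol A. A less extreme split occurred elsewhere: tributyltin replicate 4 had 37.2 FPKM of HIST2H4A and 0.806 FPKM of HIST2H4B.

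**Figure D5:**
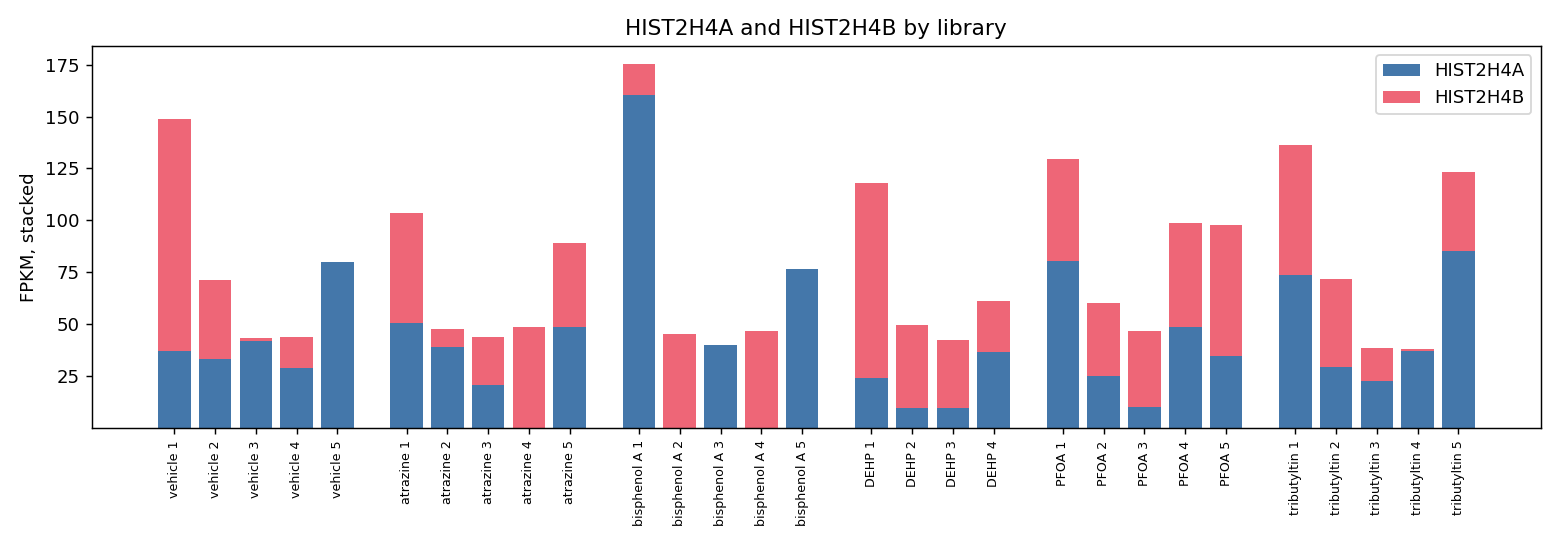
FPKM of HIST2H4A (blue) and HIST2H4B (red) in each library, stacked so that the bar height is their sum. The height runs from 38 to 175 FPKM and is highest in libraries numbered 1, while the split between the copies changes from library to library.

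The sum of HIST2H4A and HIST2H4B was far steadier than either copy. Its SD within groups was 0.725 on the log2 scale, against 1.91 for HIST2H4A and 1.94 for HIST2H4B, and it averaged 135 ± 25 FPKM (SD, n = 6) in libraries numbered 1 and 42.3 ± 2.93 FPKM (n = 6) in those numbered 3. The fold changes of the single copies against vehicle, from -1.61 for HIST2H4A with bisphenol A to 2.03 for HIST2H4B with PFOA, had standard errors of 1.09 to 1.17. None of them was called, the smallest unadjusted p being 0.0756 and the limma adjusted p-values 0.714 or more. How the reads of such copies were shared out is not given in the sources used.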

How the data were processed

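RNA-seq was read in 29 libraries of 6 groups. The authors deposited 1 table of FPKM values with human symbols and Entrez identifiers; all 29 value columns matched 1 title each and 0 did not. Per the submitters' processing notes, reads were handled with TopHat2 2.1.1, with SAMtools and with Cuffdiff 2.2.1; the notes name the build GRCm38.p5 without its role. The rhesus build, the handling of reads that map to several copies and of feeder reads are not given in the sources used here. FPKM were tested as log2(value + 1) with limma 3.58.1 in R 4.3.3 (all groups in 1 fit, mean-variance trend, two-sided, Benjamini-Hochberg threshold 0.05) over the 11080 of 16048 genes that averaged 1 FPKM or more, since FPKM are not counts. The test and the depth estimate were tested on simulated data. Absolute depth is unknown; relative depth came from the steps of low FPKM values, of which 99.97% in the genes with a step were whole within 0.1. The members and lists were chosen with earlier results of these data known. Values are given for called members, the highest member of each replication-dependent class, the 6 highest variants, the member with the smallest p in each comparison, and from the other lists the 2 highest genes, NPAT and each called gene. SLBP was not analysed here. Same-numbered libraries were taken as paired where every pair of deviations from the group means correlated at over 0.1, which held for tributyltin and vehicle (lowest of 5 correlations 0.175, across genes). Alternatives were another pseudocount, 2 other filters, 2 scalings, the replicate block, no trend, library weights, a depth covariate, fewer groups and leaving out each library; the number term and leaving out numbers 1 and 5 were added after seeing the data.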

Additional observations from a re-analysis of the deposited data

Results flagged for a closer look

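In 90 sets of 4 or 5 values, those of 15 quantities in 6 groups, 7 held a library that stood apart from the others of its group by Dixon's 95% criterion, which chance meets in about 1 in 20 sets. Of the H2A genes, HIST1H2AD had 82.8 FPKM in PFOA replicate 1 while the other PFOA libraries had 54.4 to 61.5 FPKM. HIST1H2AE had 94.2 FPKM in DEHP replicate 4, against 75.4 to 77.9 FPKM. HIST1H2AC had 702 FPKM in atrazine replicate 5, against 351 to 436 FPKM. The H4 gene HIST1H4E had 869 FPKM in bisphenol A replicate 1, against 299.5 to 436 FPKM. Among variants H2AFZ had 986 FPKM in bisphenol A replicate 2, against 1288 to 1386 FPKM, and was the only one of the 7 to stand apart on the low side. H2AFY2 had 91.2 FPKM in vehicle replicate 1, against 69.7 to 75.6 FPKM, and 106 FPKM in tributyltin replicate 1, against 73.6 to 82.7 FPKM. Of the 7 libraries, 4 carried the replicate number 1. The difference of bisphenol A from the mean of the other 4 compounds for HIST1H2AD, -0.805 on the log2 scale, passed limma's test of the difference itself.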

How the results depend on the processing

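With the replicate number as a block, 1 histone gene was called with atrazine (HIST1H2AH, limma adjusted p = 0.0303), 1 with bisphenol A (HIST1H2AD, 0.0257), 1 with DEHP (H3F3B, -0.38, 0.0473) and 1 with tributyltin, against 0 without it; 3 were called for bisphenol A against the other compounds (HIST1H2AD, HIST1H2AB and HIST1H4L) and 5 among the 6 groups, against 1 each. The pairing check was met only for tributyltin. The block changed no call of a histone gene with PFOA. The shares of all genes called by the block alone, and by the other single settings below, are not given here. Without those shares the histone counts have no background beside them. The counts of all genes called moved as well. Over all alternatives, not the block alone, they reached 84 with atrazine, 3 with bisphenol A, 74 with DEHP and 420 with tributyltin. They reached 543 both for bisphenol A against the other compounds and among the 6 groups. Library weights called 1 histone gene with atrazine (HIST1H2AH, adjusted p = 0.0412) and 2 among the groups, and a depth covariate called 3 for bisphenol A against the other compounds. The fit with the covariate cannot separate depth from bisphenol A. Without a filter and with quantile normalization 0 were called among the groups. Leaving out 1 library gave 0 to 1 among the groups, where the call was lost in 13 of 29 cases, and 0 to 1 for bisphenol A against the other compounds; with each compound against vehicle it gave 0. The count of 53 histone genes that differed among numbers lay between 51 and 63 in its 36 alternatives. The 6 group means of summed FPKM moved by less than 1 SD in all of theirs, and none of the 8 tested fold changes of named genes changed direction. The small depth of the bisphenol A libraries, the wide spread between wells and near-identical copies limit what single genes can show.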
